A study of Mus musculus with 8 samples.

Results

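Pyrimidine nucleotides, the building blocks UTP, CTP and dTTP of RNA and DNA, are either made anew or recovered from nucleosides. Here 8 mouse genes of these routes, Upp1, Uck1, Uck2, Tk1, Tyms, Cad, Dhodh and Umps, were described among the 20153 gene identifiers of the deposited expression table. Each was found by its symbol, and all 8 met the filter on low values (at least 2 libraries with 1 FPKM or more), which was met by 11083 genes. Upp1 was chosen because it differed between EGCs and PGCs in these data. Its levels are therefore given as a description, without a test in any comparison with EGCs or PGCs. The other 7 genes were named by their place in the pathway, with earlier results of these data known.

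RNA was sequenced from 8 libraries in 4 groups of 2, which the submitters call biological replicates. PGCs, the primordial germ cells that give rise to eggs and sperm, were taken from Oct4gfpXCD1 embryos at E9.5, at passage 0 and about 250 cells per library. EGCs are pluripotent lines that arise when PGCs are cultured. Lines 4 and 7 came from sorted E9.5 PGCs of the same Oct4gfpXCD1 strain and were taken at passage 6 with 500 cells each, so that each EGC library stands for 1 line. Per the labels' protocols, EGCs were grown in serum with LIF on embryonic fibroblast feeders. The remaining groups were made in culture from BVSC embryonic stem cells at passage 21. They are iPGCs, from a hanging drop method (1500 cells per library), and PGCLCs, PGC-like cells from aggregates of epiblast-like cells (300 to 500 cells per library). PGCs and EGCs therefore share a strain that iPGCs and PGCLCs do not, and strain, culture and cell source cannot be told apart in comparisons across them. No treatment beyond these culture methods is listed for any group. RNA was amplified before library preparation and read as 50-base single-end reads.

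Pyrimidines reach RNA and DNA by salvage and by de novo synthesis. In salvage, uridine and cytidine are taken up and phosphorylated by the kinases Uck1 and Uck2, thymidine is phosphorylated by Tk1, and uridine phosphorylase, encoded by Upp1, splits uridine reversibly into uracil and ribose 1-phosphate. In de novo synthesis, the Cad protein carries out the opening reactions, the mitochondrial enzyme Dhodh oxidises dihydroorotate, and Umps completes UMP, from which thymidylate synthase, encoded by Tyms, later supplies dTMP for DNA. Dividing cells such as germ cell precursors need these nucleotides to copy their DNA.

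Values are FPKM, fragments per kilobase of transcript relative to all mapped fragments of a library, so each is a share of a library's RNA, and in such bulk samples fewer cells of a type and less RNA per cell cannot be told apart. Approximate depths, read from the steps between low values, ran from 2.73 M reads in iPGC library 1 to 16.8 M in PGC library 1. PGC library 1 stood apart by transcripts of other embryonic cells. The summed level of 5 extraembryonic endoderm markers was 147 FPKM there, with Afp at 82.5, against 0.606 in PGC library 2 and 0.0234 to 2.37 in the others. For the 7 blood and macrophage markers in the table the sum was 130 and 14.3 FPKM in the PGC libraries and at most 0.308 elsewhere, with Tyrobp listed at 0 in all 8. The 8 germ cell markers summed to 596 to 1379 FPKM in PGCs, iPGCs and PGCLCs, against 129 and 254 in EGCs, and all 3 germ cell labels showed Dppa3 at 317 FPKM or more. Dppa3, Prdm1, Prdm14, Tfap2c and Kit were lowest in the EGC lines, and the others overlapped. Dnd1 was at 0.732 FPKM in PGC library 1 and at 2.33 and 2.08 in EGCs. Ifitm3 was at 99.1 FPKM in PGC library 1 and 129 in EGC line 7. Nanos3 was at 0.737 FPKM in iPGC library 1 and 0.906 in EGC line 7. The 8 pluripotency markers summed to 103 and 183 FPKM in PGCs and to 453 to 907 in the other 6 libraries. Single markers did not all follow the sum. Dppa5a was at 6.78 and 20.1 FPKM in PGCs and 73.4 to 370 elsewhere. Sox2 went the other way, at 30.5 and 31.8 FPKM in PGCs and 10.8 to 26.8 elsewhere. Esrrb was higher in PGCs (26.6 and 34.25 FPKM) than in EGCs (22.9 and 20.6 FPKM). In EGCs the fibroblast markers Col3a1, Dcn and Lum were listed at 0, Col1a1 was at 0.0142 and 0, and the sum of 6 such markers was 0.977 and 3.56 FPKM, nearly all of it Thy1.

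Promoter sequence is shown for Upp1, whose level spanned the widest range, and for Tyms, whose groups overlapped throughout, so that both can be read beside their values. The sequences are the 250 bases before a RefSeq start in GRCm38.p6, printed 5′ to 3′ on the gene's strand, with matches to the searched motifs in capitals. Upp1 lies on chromosome 11, and its upstream window before the 5′-most of 3 RefSeq starts is chr11:9117758-9118007 on the plus strand. The Tyms window is chr5:30073626-30073875 on the minus strand.
Upp1: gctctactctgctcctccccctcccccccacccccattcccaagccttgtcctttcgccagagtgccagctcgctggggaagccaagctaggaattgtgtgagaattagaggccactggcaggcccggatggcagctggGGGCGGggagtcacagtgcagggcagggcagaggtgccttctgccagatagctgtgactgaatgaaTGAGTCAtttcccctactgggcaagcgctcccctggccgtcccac
Tyms: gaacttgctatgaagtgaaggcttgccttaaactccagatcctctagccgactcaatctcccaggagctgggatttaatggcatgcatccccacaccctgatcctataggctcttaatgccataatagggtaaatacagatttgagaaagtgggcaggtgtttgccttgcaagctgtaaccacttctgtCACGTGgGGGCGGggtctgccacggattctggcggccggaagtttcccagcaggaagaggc
In the Upp1 window the capitals mark a GC box (GGGCGG) 111 to 106 bases before the start and an AP-1 motif (TGANTCA, here TGAGTCA) 45 to 39 bases before it. In the Tyms window they mark an E-box (CACGTG) 61 to 56 bases before the start and a GC box 54 to 49 bases before it. Both strands were searched for these motifs, for the letters CCAAT and for a TATA box, written TATAAA. They were also searched for the cyclic AMP response element or CRE, whose letters are TGACGTCA. The E2F motif was searched in 4 forms, and these included TTTGGCGC and, besides it, the form TTTCCCGC. The other forms were TTTCGCGC and, as the last of them, TTTGCCGC. The AP-1 motif was added to the search after the Upp1 sequence had been read.

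A GC box was common among all 32851 RefSeq promoters of the same length, at 32.7%, whereas an AP-1 motif occurred in 6.75% and an E-box in 6.02%. Of the 8 genes, 7 had a RefSeq promoter, and 6 of these held a GC box in the window of at least 1 start. Uck2 had 4 matches, of which a pair shared 1 base, Cad had 2, Tk1 and Umps had 1 each, and Uck1 had no match to any searched motif. Umps also held a TATA box, which occurred in 12.4% of promoters. No match to the CCAAT box (33.8% of promoters), the E2F motif (1.86%) or the CRE (1.55%) was found in the 7 genes' windows. The windows before the 3 Upp1 starts differed: the first and the second share the GC box and the AP-1 motif, and the third has no match to any searched motif. GC content was 62.4%, 55.6% and 52.8% for these Upp1 windows, 66.0% for Uck2 and 52.0% for Tyms, beside a median of 52.4% over all promoters. These matches are letters in a window and were not tied to any binding data.

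Upp1 was near the limit of detection in PGCs and present in every library of the 3 other groups. Its locus is chr11:9118103-9136170 on the plus strand (GRCm38, GENCODE M21), a protein-coding gene with 9 annotated transcripts. The levels were 0.22 and 0.105 FPKM in PGCs, 23.6 and 9.37 in iPGCs, 22.5 and 49.4 in the PGCLC libraries, and 115 and 70.1 in EGC lines 4 and 7. Both PGC libraries lay below all others and both EGC libraries above all others, while iPGCs and PGCLCs overlapped. In terms of reads, the PGC values rest on about 4.7 and 1.9 reads at the approximate depths, against about 82.0 to 1946.2 in the other libraries. The PGC level is therefore known only roughly, and so are the ratios to it.

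As a description of the values that chose the gene, the mean EGC level of 92.4 ± 31.6 FPKM (SD, n = 2) was 570 times the PGC mean of 0.162 ± 0.0817 FPKM, and the ratio between single libraries ran from 318 to 1098. The iPGC mean of 16.5 ± 10.0 FPKM was 101 times the PGC mean, and the PGCLC mean of 36.0 ± 19.0 FPKM was 222 times it. These 3 ratios share the same PGC libraries. On the log2(FPKM + 1) scale, which shrinks ratios of low values, Upp1 exceeded its PGC level by 3.78 (iPGCs), 4.89 (PGCLCs) and 6.29 (EGCs), each with an SE of 0.63. Among the tested genes of its own library, Upp1 stood at percentiles 18.8 and 17.9 in PGCs, 81.7 and 60.7 in iPGCs, 76.8 and 93.0 in the PGCLC libraries, and 98.4 and 96.7 in EGCs. The position in the ranking, which does not depend on how libraries are scaled, thus followed the same order as the FPKM.

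In the comparison of PGCLCs with iPGCs, the estimate uses none of the libraries that chose Upp1. The SE and p do use them, because the spread was estimated over all 4 groups together. There the mean ratio was 2.18, and the log2 difference of 1.11 ± 0.63 (SE, n = 2 against 2) did not pass in limma (Benjamini-Hochberg adjusted p = 1.0, unadjusted p = 0.113). The spread within each of these groups, 2.52 times between the iPGC libraries and 2.19 times between the PGCLC libraries, was as large as the difference between them. The related gene Upp2, which encodes a further uridine phosphorylase, was listed at 0 in 7 libraries and at 0.251 FPKM in iPGC library 2, and did not pass the filter.

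**Figure D1:**
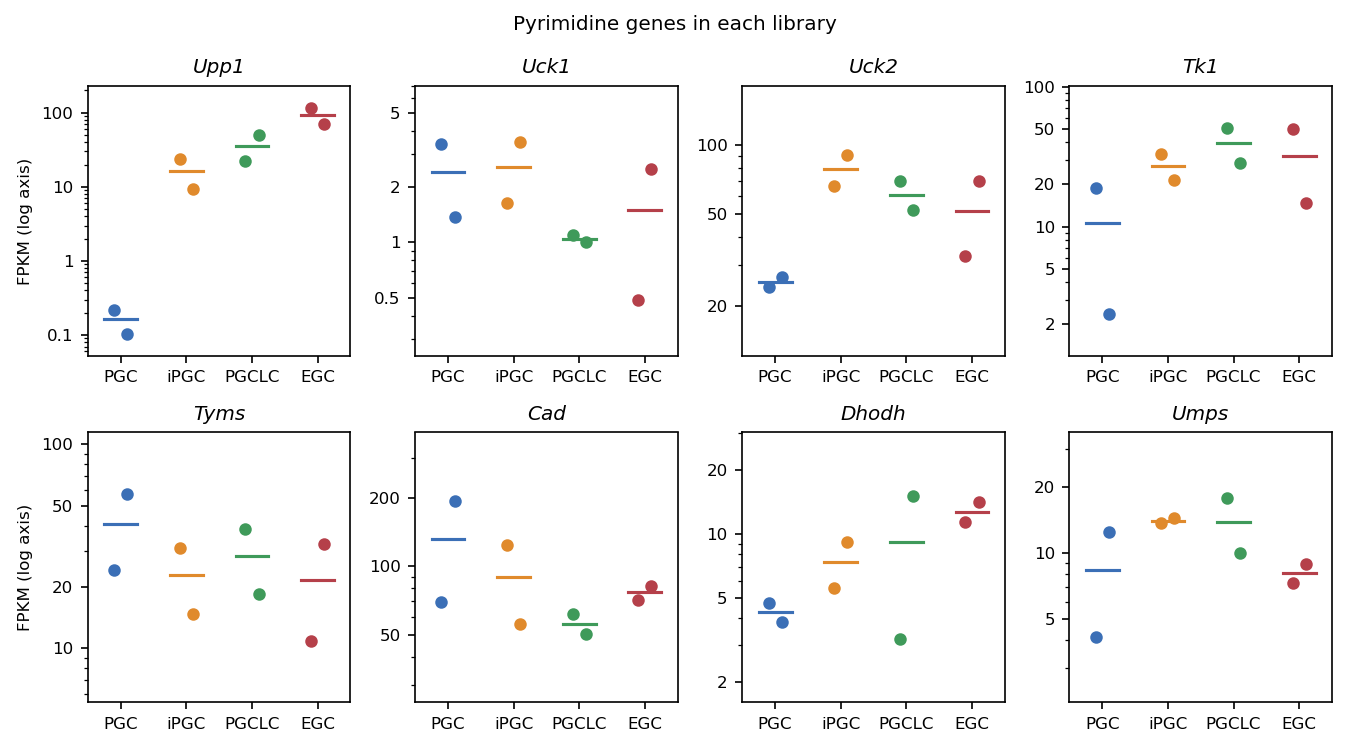
Level of each of the 8 genes in FPKM on log axes, with 1 point per library and a bar at the mean of 2 libraries. Both PGC points lie below all other points for Upp1 and Uck2, and the groups of the remaining genes overlap in part.

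The 2 uridine-cytidine kinases differed in level throughout. They belong to 1 family and use the same substrates, and FPKM is per length, so their levels can be compared. Uck2 was at 24.1 and 26.6 FPKM in PGCs, 66.4 and 90.9 in iPGCs, 69.6 and 52.5 in the PGCLC libraries, and 33.1 and 70.1 in EGC lines 4 and 7. Both PGC libraries were below the other 6, with EGC line 4 the nearest to them. The means were 25.3 ± 1.75 FPKM in PGCs, 78.6 ± 17.4 in iPGCs, 61.1 ± 12.1 in the PGCLC libraries and 51.6 ± 26.2 in EGCs (SD, n = 2), and the last 3 groups overlapped. Uck2 had the smallest spread between the PGC libraries of the 8 genes, 1.1 times.

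In limma with Benjamini-Hochberg adjustment over all tested genes, Uck2 was 1.58 ± 0.48 higher in iPGCs than in PGCs on the log2 scale, which did not pass (adjusted p = 0.138, unadjusted p = 0.00963). The difference was 1.22 ± 0.48 in PGCLCs (limma adjusted p = 0.207) and 0.90 ± 0.48 in EGCs (limma adjusted p = 0.379). All 3 estimates were positive and none reached the threshold of 0.05. Both PGC libraries lay below all 6 others in 15.2% of all tested genes, so the separation seen for Uck2 is common in this table. It was kept after quantile normalization and after setting library medians equal, where 8.89% and 9.11% of tested genes showed it.

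Uck2 lies at chr1:167222883-167285320 on the minus strand and overlaps the antisense gene Gm37982 by 9036 bases. Whether strand was used in counting is not stated, so reads of the pair cannot be separated. The table also has a further entry with the symbol Uck2 under an identifier that GENCODE M21 does not hold. That entry was listed at 0 in 5 libraries and at 44.8, 92.4 and 42.1 FPKM in iPGC library 2, PGCLC library 2 and EGC line 7, and reads may have been divided between the 2 entries. The PGC libraries were at 0 in it.

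Uck1 was the lowest of the 8 genes outside PGCs. Its levels were 3.40 and 1.37 FPKM in PGCs, 1.62 and 3.51 in iPGCs, 1.09 and 0.995 in the PGCLC libraries, and 0.483 and 2.50 in EGCs. No neighbouring groups in the order of means (PGCLC, EGC, PGC, iPGC) were apart, and the EGC lines differed by 5.18 times, the widest spread of any of the 8 genes in that group. The differences from PGCs were 0.09 ± 0.68 in iPGCs, -0.66 ± 0.68 in PGCLCs and -0.50 ± 0.68 in EGCs (log2 ± SE), and none passed in limma (adjusted p = 0.96, 0.633 and 0.749). Uck1 lies at chr2:32255002-32260159 on the minus strand.

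The ratio of Uck2 to Uck1 within a library does not depend on library scaling, although its precision depends on depth. It was 7.09 and 19.4 in PGCs, 40.9 and 25.9 in iPGCs, 63.6 and 52.8 in the PGCLC libraries, and 68.4 and 28.0 in EGCs. Uck2 exceeded Uck1 in all 8 libraries, and the PGC libraries had the 2 lowest ratios. Uck1 rests on about 114.4 and 40.2 reads in PGCs and 8.9 to 104.4 elsewhere. It had about 8.9 reads in iPGC library 1, 12.9 in EGC line 4 and 16.0 in PGCLC library 1. The high ratios in these libraries are therefore known only roughly. With 2 libraries against 2, an exact permutation test cannot pass the threshold of 0.05, so no test of these ratios was made.

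Tk1, the cytosolic thymidine kinase, whose transcript and protein are known to peak in S phase, was the most variable gene in PGCs. It was at 19.0 and 2.37 FPKM there, an 8.01-fold spread between the libraries, with the lower value in library 2. The other levels were 33.0 and 21.5 in iPGCs, 50.7 and 28.5 in the PGCLC libraries, and 49.7 and 14.8 in EGCs. The PGC range lay below those of iPGCs and PGCLCs and overlapped that of EGCs through line 7. The log2 differences from PGCs were 1.75 ± 0.89 in iPGCs, 2.25 ± 0.89 in PGCLCs and 1.78 ± 0.89 in EGCs, and none passed in limma (adjusted p = 0.322, 0.214 and 0.352). In limma the PGCLC difference had an unadjusted p = 0.0335, adjusted p = 0.214. Without PGC library 2 it was 0.97 on the log2 scale, so that library set much of its size. Tk1 (chr11:117815526-117826092, minus strand) lies wholly within the predicted gene Gm20708 on the opposite strand and overlaps Afmid by 169 bases. Afmid was at most at 0.305 FPKM in any library.

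Tyms, thymidylate synthase, showed no separation between any neighbouring groups. Its levels were 24.1 and 57.2 FPKM in PGCs, 30.9 and 14.7 in iPGCs, 38.4 and 18.4 in the PGCLC libraries, and 10.9 and 32.4 in EGCs. In each group the libraries differed by at least 2.08 times, more than the ratio of the highest to the lowest group mean (40.6 ± 23.4 in PGCs and 21.6 ± 15.2 FPKM in EGCs). The differences from PGCs were -0.77 ± 0.71 in iPGCs, -0.47 ± 0.71 in PGCLCs and -0.94 ± 0.71 in EGCs, and none passed in limma (adjusted p = 0.585, 0.761 and 0.544). Tyms lies at chr5:30058202-30073617 on the minus strand. It has a processed pseudogene on chromosome 10, Tyms-ps, which is not an entry of the table, so reads from it could have been counted at Tyms.

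To set both S phase enzymes beside a replication gene, their FPKM was divided by that of Pcna, the sliding clamp of DNA polymerase, in the same library. The ratio of Tk1 to Pcna was 0.377 and 0.109 in PGCs, 1.84 and 1.24 in iPGCs, 1.70 and 1.42 in the PGCLC libraries, and 2.29 and 0.724 in EGCs. Both PGC libraries were the lowest in this ratio. Pcna itself was at 50.4 and 21.75 FPKM in PGCs and 17.3 to 29.8 elsewhere, so its high level in PGC library 1 lowers the ratio there. Other replication genes were not used as a divisor. The ratio of Tyms to Pcna was 0.479 and 2.63 in PGCs and lay between 0.500 and 1.73 elsewhere, so that the PGC libraries held both the lowest and the highest value. Of 19 tested S phase genes none passed in limma in any comparison with PGCs, beside at most 1.06% of all tested genes. The median log2 difference of the S phase genes from PGCs was 0.03 in iPGCs, 0.05 in PGCLCs and -0.47 in EGCs. Over all tested genes it was 0.47, 0.44 and 0.07.

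**Figure D2:**
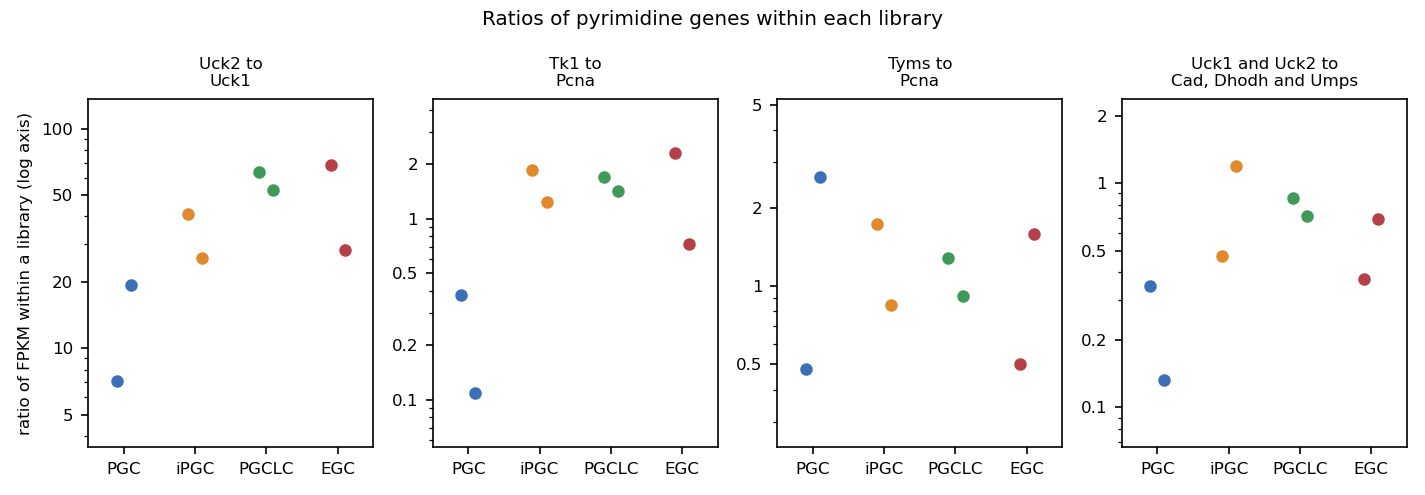
Ratios of FPKM within each library on log axes, with 1 point per library. PGC points are the lowest for Uck2 to Uck1, for Tk1 to Pcna and for the kinases to the de novo genes, whereas for Tyms to Pcna they lie at both ends of the range.

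Among the de novo genes Cad was the most abundant. Its protein joins the activities of carbamoyl phosphate synthetase, aspartate transcarbamoylase and dihydroorotase in a single chain. Levels were 69.8 and 194 FPKM in PGCs, 124 and 55.9 in iPGCs, 61.4 and 50.3 in the PGCLC libraries, and 71.2 and 82.2 in EGCs. PGCs overlapped iPGCs and EGCs, and both PGCLC libraries lay below both PGC and both EGC libraries but on either side of iPGC library 2. The log2 difference from PGCs was -1.06 ± 0.57 in PGCLCs, -0.48 ± 0.57 in iPGCs and -0.60 ± 0.57 in EGCs, and none passed in limma (adjusted p = 0.365, 0.683 and 0.641). Cad lies at chr5:31054780-31078479 on the plus strand and its transcript, at up to 7137 bases, is the longest of the 8 genes.

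Dhodh, the only enzyme of the route in mitochondria, was at 4.71 and 3.84 FPKM in PGCs, 5.58 and 9.19 in iPGCs, 3.21 and 15.0 in the PGCLC libraries, and 11.3 and 14.1 in EGCs. The means followed the same order as those of Upp1. PGCs lay below iPGCs and EGCs, but PGCLC library 1 was the lowest of all 8 libraries and PGCLC library 2 the highest, a spread of 4.69 times. In limma the difference from PGCs was 1.38 ± 0.71 in EGCs (adjusted p = 0.372), 0.64 ± 0.71 in iPGCs (adjusted p = 0.661) and 0.64 ± 0.71 in PGCLCs (adjusted p = 0.664). Dhodh lies at chr8:109591343-109608673 on the minus strand.

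Umps, the bifunctional enzyme that makes UMP from orotate, was at 4.17 and 12.5 FPKM in PGCs, 13.7 and 14.4 in iPGCs, 17.8 and 10.0 in the PGCLC libraries, and 7.32 and 8.91 in EGCs. Both EGC lines lay within the range of the PGC libraries. Both iPGC libraries were above both PGC and both EGC libraries, and PGCLC library 2 overlapped with PGCs. The differences from PGCs were 0.85 ± 0.62 in iPGCs, 0.78 ± 0.62 in PGCLCs and 0.12 ± 0.62 in EGCs, and none passed in limma (adjusted p = 0.482, 0.526 and 0.951). Umps lies at chr16:33954782-33967038 on the minus strand and overlaps the antisense gene Gm15829 by 800 bases.

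The balance between routes was described by the summed FPKM of the kinases Uck1 and Uck2 over that of Cad, Dhodh and Umps. It was 0.349 and 0.133 in PGCs, 0.475 and 1.19 in iPGCs, 0.858 and 0.710 in the PGCLC libraries, and 0.373 and 0.690 in EGCs. It was above 1 in iPGC library 2, and both PGC libraries were below the other 6. The further Uck2 entry was not added to the sum, and with it the ratio would be higher in iPGC library 2, PGCLC library 2 and EGC line 7. PGC library 1 and EGC line 4 were close to each other, and Cad and Uck2 make up most of both sums. This is a ratio of transcripts and says nothing of flux.

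With Upp1 set aside, none of the genes passed in any comparison with PGCs. In iPGCs against PGCs 0 of the 7 other genes passed in limma, where 88 of 11083 tested genes did (0.794%), and 1 of the 7, Uck2, had an unadjusted p below 0.05. In PGCLCs against PGCs 0 of 7 passed, beside 117 of all tested genes (1.06%), and 2 of 7, Uck2 and Tk1, had an unadjusted p below 0.05. In EGCs against PGCs 0 of 7 passed, beside 82 of all tested genes (0.74%), and 0 of 7 had an unadjusted p below 0.05. With calls this rare over the whole table, a count of 0 among 7 genes is near the background. At an unadjusted p below 0.05 the background was 19.5%, 19.5% and 17.2% of tested genes.

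The comparisons among the 3 cultured groups also gave no call. For PGCLCs against iPGCs 0 of the 8 genes passed in limma, beside 2 of all tested genes (0.018%), and 0 had an unadjusted p below 0.05. For EGCs against iPGCs 0 of the 7 genes other than Upp1 passed, beside 13 of all tested genes (0.117%), and for EGCs against PGCLCs 0 of 7 passed, beside 11 (0.0993%). In both, 0 of the 7 had an unadjusted p below 0.05. Over all tested genes, 10.3% for EGCs against iPGCs and 13.9% for EGCs against PGCLCs were below that limma threshold. For PGCLCs against iPGCs the share was 4.68%. With so few genes, a count of 0 is near these shares. The estimates for the 7 genes ran from -0.73 for Umps to 0.73 for Dhodh in EGCs against iPGCs, and from -0.66 for Umps to 0.73 for Dhodh in EGCs against PGCLCs. Upp1 was 2.51 ± 0.63 higher in EGCs than in iPGCs and 1.40 ± 0.63 higher than in PGCLCs on the log2 scale, given without a test. Both EGC lines were above all 6 other libraries in 3.08% of tested genes, and of the 8 genes Upp1 alone showed this.

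**Figure D3:**
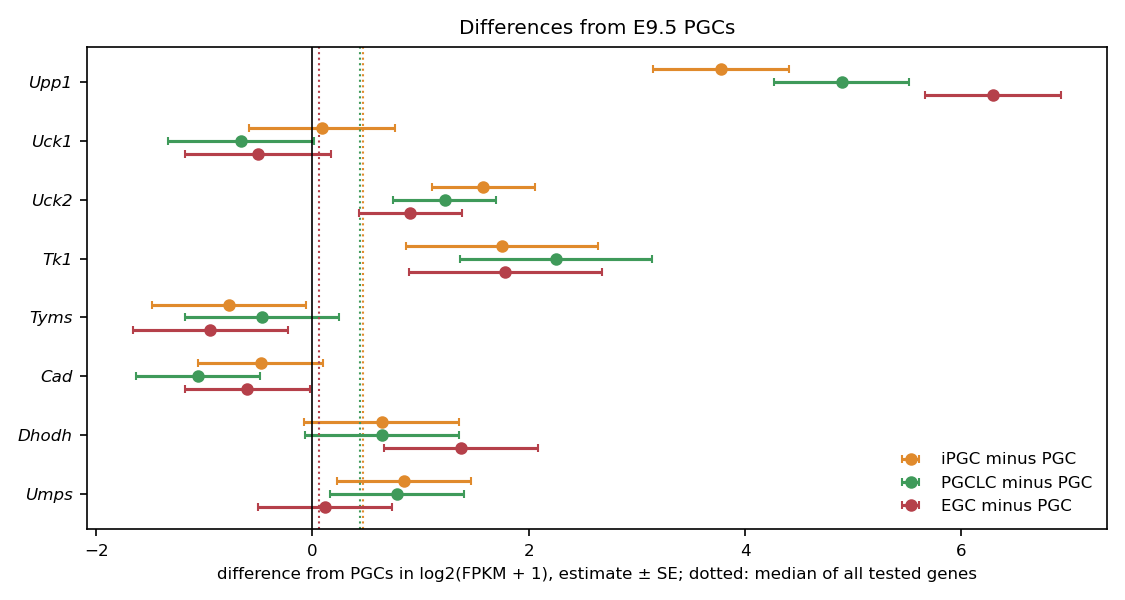
Difference of each gene from PGCs in log2(FPKM + 1), as the limma estimate with its SE (n = 2 against 2), for iPGCs, PGCLCs and EGCs, with the median of all tested genes as dotted lines. Upp1 lies between 3.78 and 6.29, and the other 7 genes lie between -1.06 and 2.25; the 3 comparisons share the PGC libraries.

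The wider pathway was read from 9 lists with 55 genes in the table, of which 47 passed the filter. Without Upp1, 1 of 46 tested genes passed in each comparison with PGCs. Of all tested genes 0.794% passed for iPGCs, 1.06% for PGCLCs and 0.74% for EGCs. The list gene was the same each time, Nme4. It encodes a mitochondrial nucleoside diphosphate kinase, an enzyme that turns nucleoside diphosphates into triphosphates. Its entry was 0 in PGC libraries 1 and 2, 28.6 and 31.1 FPKM in iPGCs, 13.8 and 13.3 in the PGCLC libraries, and 25.8 and 27.0 in EGCs. The gene met the filter only through the groups in which it was high, so some difference from PGCs was built in. The filter did not fix the size of that difference, the group that showed it or a call. An exact 0 can also be a failed estimate. Nme4 levels are therefore given as a description, with no difference from PGCs and no p. Leaving out either library of the group compared with PGCs, or fitting only those 2 groups, ended the call in each case, and the call in PGCLCs was also lost without either iPGC library. Its abundant relative Nme2 was at 272 and 293 FPKM in PGCs, within the range of 121 to 627 in the other libraries. The closely related sequences of this family could divide reads.

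The median log2 difference over the 46 genes was 0.77 in iPGCs, 0.75 in PGCLCs and 0.25 in EGCs, beside 0.47, 0.44 and 0.07 over all tested genes. Positive estimates numbered 35, 28 and 26 of 46, beside 66.7%, 66.4% and 53.1% of all tested genes. The 46 include genes that met the filter only through groups in which they were high. In the comparisons among cultured groups the median was -0.05 for PGCLCs against iPGCs, -0.30 for EGCs against iPGCs and -0.22 for EGCs against PGCLCs, beside medians of -0.0035, -0.40 and -0.38 over all tested genes. Of the 14 tested purine genes, taken as a neighbouring pathway, none passed against PGCs, beside at most 1.06% of all tested genes. The median of the purine genes was 0.72 in iPGCs, 0.44 in PGCLCs and -0.16 in EGCs.

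Equilibrative transporters (Slc29 family) and concentrative transporters (Slc28 family) carry nucleosides across membranes. The summed FPKM of the 7 listed transporters was 1.51 and 9.33 in PGCs, 43.2 and 61.9 in iPGCs, 106 and 28.8 in the PGCLC libraries, and 22.5 and 41.0 in EGCs. Slc29a1 made up most of the sum except in PGC library 1, where Slc28a2 was higher, at 0.599 FPKM. Slc29a1 was at 0.460 and 8.73 FPKM in PGCs, 33.6 and 48.9 in iPGCs, 99.5 and 18.0 in the PGCLC libraries, and 14.7 and 34.0 in EGCs. PGC libraries were the lowest for the sum and for Slc29a1, but the ratio between the PGC libraries was larger than that between PGC library 2 and the nearest library of another group. Slc29a1 did not pass against PGCs in limma (adjusted p = 0.134 in iPGCs, 0.12 in PGCLCs and 0.244 in EGCs). Of the 5 transporters that passed the filter, Slc28a1, Slc29a2, Slc29a3 and Slc29a4 did so only through the other groups, being at 0.377 FPKM or less in both PGC libraries.

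Counted over the lists, both PGC libraries lay below all 6 others in 12 of the 46 genes (26.1%), against 15.2% of all tested genes. Many of these entered only through the other groups. Among those that reached 1 FPKM in a PGC library the count was 5 of 36 (13.9%), against 9.54% of all such genes. Those 5 were Uck2, the folate cycle enzymes Shmt2 and Mthfd1, the nucleotidase Nt5c3 and Slc29a1. Mthfd1 levels in PGCs were 15.1 and 8.20 FPKM, and 19.6 to 37.4 elsewhere.

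The list of breakdown genes and nucleotidases also held an entry with the symbol Pgm2. Which reaction the enzyme of this entry carries out was not checked. Pgm2 was at 0.0830 and 0.598 FPKM in PGCs, 4.30 and 3.27 in iPGCs, 1.93 and 4.03 in the PGCLC libraries, and 10.7 and 4.89 in EGCs. It met the filter only through the other groups, so no test of it is given. Dpyd and Upb1, which degrade uracil further together with Dpys, did not pass the filter. Dpyd was at 0.422 FPKM or less throughout, and Upb1 reached 2.29 FPKM in PGCLC library 1. Dpys passed the filter. It was at 0 and 2.48 FPKM in PGCs, 5.61 and 2.02 in iPGCs, 22.8 and 0.744 in the PGCLC libraries, and 4.03 and 8.10 in EGCs. Cda, cytidine deaminase, which makes uridine from cytidine, was listed at 0 in the PGC and PGCLC libraries and at 0.847 to 3.62 FPKM in the rest.

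Both PGC libraries lay above all 6 others in 3 of the 46 genes. These were Dut and Samhd1 of deoxynucleotide supply and Ctps2 of CTP synthesis. Dut, the dUTPase that keeps uracil out of DNA, was at 115 and 167 FPKM in PGCs, 107 and 61.3 in iPGCs, 76.7 and 108 in the PGCLC libraries, and 39.3 and 42.2 in EGCs. Its difference in EGCs of -1.74 ± 0.44 did not pass in limma (adjusted p = 0.106). Samhd1 and Ctps2 also had both PGC libraries above all others, as did 6.05% of tested genes. Samhd1, a dNTP hydrolase, had PGC levels of 50.0 and 35.5 FPKM and 9.92 to 32.8 elsewhere. Ctps2, a CTP synthetase, had PGC levels of 59.6 and 49.6 FPKM and 9.42 to 41.6 elsewhere.

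**Figure D4:**
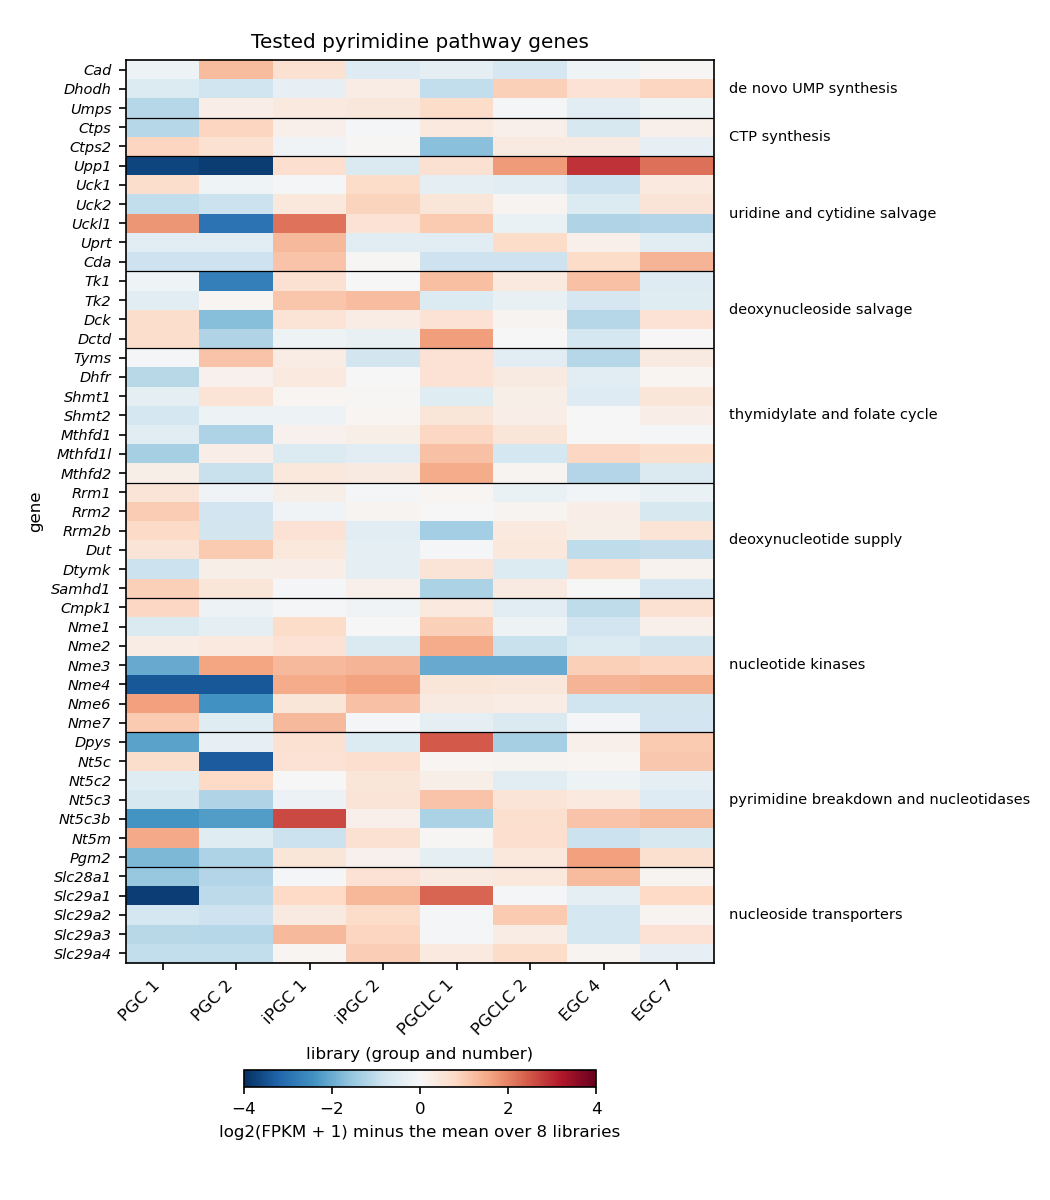
Heat map of the 47 tested pyrimidine genes (rows, grouped by list) in 8 libraries (columns), with log2(FPKM + 1) minus each gene's mean over the libraries as colour. Genes that are blue in both PGC columns include Upp1, Nme4, Nt5c3b and the 5 transporters, some of which passed the filter only through the other groups.

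Members did not vary together as a block. Over the 8 libraries, Pearson's r with Upp1 in log2(FPKM + 1) was 0.68 for Dhodh, 0.67 for Tk1 and 0.53 for Uck2, and -0.49 for Uck1, -0.49 for Tyms and -0.45 for Cad. Tyms and Cad had an r of 0.68, and Tk1 and Cad one of -0.70. These values describe 8 libraries that fall into 4 groups and share depth and scaling, and no p is given.

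By the rule for likeness, 5745 genes with a mean of 10 FPKM or more in at least 1 group were ranked by r with Upp1, and the 5 highest were Cnpy1 (0.98), Ubr7 (0.98), Lama5 (0.96), Dmd (0.95) and Sumf2 (0.95). None is a gene of the pyrimidine lists. Cnpy1 was at 0.364 and 0.0172 FPKM in PGCs, 5.03 to 8.21 in iPGCs and PGCLCs, and 13.6 and 17.1 in EGCs. Lama5, a laminin chain, had 1.30 and 0.0140 FPKM in PGCs but 36.1 and 38.0 in EGCs, with 33.5 in iPGC library 1 and 7.44 in iPGC library 2. Ubr7, a member of the UBR protein family, had the narrowest range on the log2 scale, from 4.80 and 6.15 FPKM in PGCs to 18.5 and 21.3 in EGCs. The genes were ranked on the pattern that chose Upp1, so their own separation of PGCs is not a further result.

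**Figure D5:**
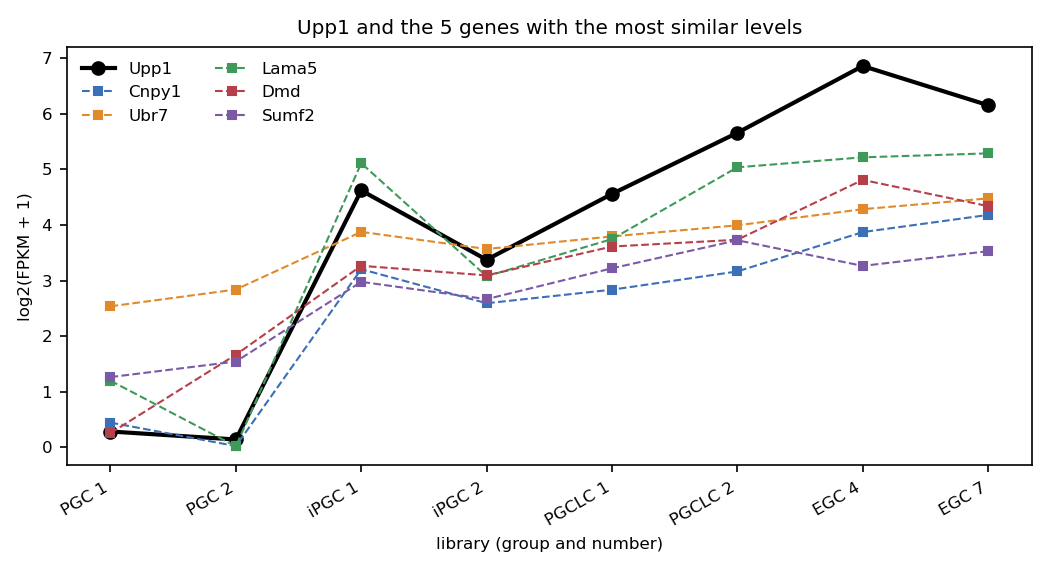
Level of Upp1 and of the 5 genes with the highest Pearson r to it, as log2(FPKM + 1) in each of the 8 libraries; lines only join the points of a gene. All 6 genes are lowest in the PGC libraries, and Upp1 spans the widest range.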

How the data were processed

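RNA of 8 mouse libraries was measured. Per the labels' protocols, small RNA inputs were amplified (Ovation), spiked with ERCC controls, which were not used here, and run in 2 lanes. The authors deposited FPKM per gene and library. TopHat2, Cufflinks and GRCm38 (mm10) are named in the submitters' processing notes; for these, versions and annotation, and whether strand was used, are not stated in the labels. Of 20171 entries, 18 repeats of an identifier were dropped, keeping the one with the highest mean. No counts were given, so genes with 2 or more libraries at 1 FPKM or above were tested as log2(FPKM + 1) with limma 3.58.1 in R 4.3.3 (trend and robust variance, two-sided, Benjamini-Hochberg within each of 6 comparisons, threshold 0.05). The spread was estimated over all 4 groups together (residual degrees of freedom 4, median prior degrees 4.53). The fit was tested on simulated data. Approximate depths came from the smallest FPKM steps among 2269 genes with a single transcript and give no exact interval. Each p-value sets a difference between groups against the spread between these libraries within groups.

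The 8 genes and all lists were chosen with earlier results of these data known. Named genes are the 8 members, list genes that passed, at most 3 more per list with the highest mean FPKM, the 5 genes most like Upp1 and cell type markers. Cda, Upp2, Slc29a2, Slc29a3, Slc29a4, Slc28a1, Slc28a2, Pgm2, Dpyd, Upb1, Nt5c3, Nt5c3b, Mthfd1, Shmt2, Samhd1, Ctps2, Pcna and Afmid were named after their values were seen where they fall outside that rule. For the likeness rule, predicted genes, ribosomal protein genes, microRNAs and small nucleolar RNAs were left out. Promoters are from RefSeq (GRCm38.p6); loci are from GENCODE M21, which held 19747 of the identifiers. Alternatives were other pseudocounts, filters, scalings and groups of libraries, a block for replicate number, and leaving out each library.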

Additional observations from a re-analysis of the deposited data

How the results depend on the processing

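At 2 libraries per group small differences could not pass. Members called stayed at 0 in every comparison and setting run, with Upp1 counted only in PGCLCs against iPGCs. Uck1 was not tested with a filter at 5 FPKM. Upp1 kept its direction in all settings, with a log2 difference in EGCs against PGCs of 8.46 at a pseudocount of 0.1 and 4.20 at 5. Counts of genes called moved more. For EGCs against PGCs, 82 became 31 with a pseudocount of 5, 14 without a filter and 0 with only the 2 groups, and 7 to 107 with a library left out (66 and 107 without PGC library 1 and 2, 7 and 11 without EGC line 4 and 7, 15 to 21 without an iPGC or PGCLC library). For iPGCs against PGCs, 88 (83 higher, 5 lower) became 166 and 34 with pseudocounts of 0.1 and 5, 18 without a filter, 45 (37 and 8) with quantile normalization, 46 (34 and 12) with equal medians, 0 with only the 2 groups and 32 in the 6 libraries without EGCs, a setting chosen after seeing the data; with a library left out it was 5 to 222. For PGCLCs against PGCs, 117 (104 higher, 13 lower) became 183, 32, 0, 36 (29 and 7), 54 (36 and 18), 0 and 39 in the same order, and 0 to 289 with a library left out. The 289 and 222 were without PGC library 2, and 0 and 5 without a PGCLC or an iPGC library. For PGCLCs against iPGCs, 2 became 1 with a pseudocount of 5, 0 without a filter, 1 with quantile normalization, 4 with only the 2 groups and 0 to 5 with a library left out. Without a filter, 13 and 11 became 8 for EGCs against iPGCs and 7 for EGCs against PGCLCs, and with a library left out 5 to 17 and 0 to 39. The split for EGCs against PGCs (58 higher, 24 lower) was 57 and 37 with quantile normalization. The cause of these shifts was not tested.

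Replicate numbers shared by PGCs, iPGCs and PGCLCs did not pair the libraries (r of deviations 0.0071, -0.03 and 0.06). With a replicate block on these 6 libraries the counts were 10 for iPGCs against PGCs, 2 for PGCLCs against PGCs and 0 for PGCLCs against iPGCs. No member was called, again with Upp1 counted only in PGCLCs against iPGCs. Nme4 lost its call in 3 of 15 other fits for EGCs, 4 of 17 for iPGCs and 8 of 17 for PGCLCs against PGCs. Nme4 met the filter only through the groups in which it was high, so this describes the fits only. The call was lost with only the 2 groups in all 3 comparisons, and for EGCs also without either EGC line. For iPGCs it was lost without either iPGC library or with the block. For PGCLCs it was lost without either PGCLC or iPGC library, with the block, with a pseudocount of 5 and without a filter.

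Of 48 member differences 29 kept their sign in all settings, and 40 of 762 recomputed values changed sign, none of them called. Nme4, listed below beside the members, is not one of them and is not in these counts. With quantile normalization the log2 difference changed sign to -0.73 for Uck1 in iPGC against PGC, 0.21 for Tyms in EGC against iPGC, 0.20 for Cad in EGC against iPGC, 0.17 for Nme4 in EGC against iPGC, 0.17 for Uck2 in EGC against PGCLC, 0.0058 for Tk1 in EGC against PGCLC, 0.0442 for Tyms in EGC against PGCLC. With equal medians the log2 difference changed sign to -0.41 for Uck1 in iPGC against PGC, -0.0408 for Dhodh in PGCLC against iPGC, 0.23 for Tyms in EGC against iPGC, 0.27 for Cad in EGC against iPGC, 0.23 for Nme4 in EGC against iPGC, 0.12 for Uck2 in EGC against PGCLC. With a pseudocount of 0.1 the log2 difference changed sign to -0.0391 for Dhodh in PGCLC against iPGC. With a library left out, differences that changed sign ran from -0.58 to 0.81 for Umps in EGC against PGC, from -1.33 to 0.13 for Cad in EGC against PGC, from -1.12 to 0.12 for Uck1 in EGC against PGC, from -0.36 to 0.54 for Uck1 in iPGC against PGC, from -1.21 to 0.25 for Cad in iPGC against PGC, from -1.07 to 0.14 for Tyms in PGCLC against PGC, from -0.32 to 1.61 for Dhodh in PGCLC against PGC, from -0.96 to 0.97 for Dhodh in PGCLC against iPGC, from -0.21 to 0.82 for Tyms in PGCLC against iPGC. The others ran from -0.45 to 0.32 for Umps in PGCLC against iPGC, from -0.91 to 0.58 for Tyms in EGC against iPGC, from -0.69 to 0.45 for Cad in EGC against iPGC, from -0.81 to 0.88 for Tk1 in EGC against iPGC, from -1.21 to 0.0282 for Uck1 in EGC against iPGC, from -1.22 to 0.27 for Tyms in EGC against PGCLC, from -0.23 to 1.70 for Dhodh in EGC against PGCLC, from -0.85 to 0.21 for Uck2 in EGC against PGCLC, from -0.46 to 0.78 for Uck1 in EGC against PGCLC, from -1.31 to 0.38 for Tk1 in EGC against PGCLC.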
